A study of Mus musculus with 4 samples.

Results

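The cytosolic ribosomal protein genes were examined in single white blood cells of mice treated, or not treated, with non-thermal plasma (NTP). Genes of the deposited expression table were taken as members by name. The symbol had to be Rpl or Rps and a number, followed at most by the letters a, x, y, l or p and digits. Rpsa, Rplp0, Rplp1, Rplp2 and Fau were added. The Rps6k kinases, entries marked as pseudogenes and Rps27a were left out. This gave 83 of the 15093 genes in the table, 51 of the large and 32 of the small ribosomal subunit. Rps27a, which encodes a small subunit protein, lies outside this rule, as does Rps27rt. The set includes 6 paralogues of other members, namely Rpl3l, Rpl7l1, Rpl22l1, Rpl36al, Rpl39l and Rps27l.

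The ribosome is assembled from ribosomal RNA and the proteins these genes encode, and the genes are known for high and roughly matched expression. Many of their messenger RNAs begin with a tract of pyrimidines, the terminal oligopyrimidine (TOP) motif, through which translation is coupled to growth signalling. In resting lymphocytes ribosomal protein messengers are among the most abundant transcripts, and activation or differentiation of the cell changes how much of the messenger pool they take.

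Peripheral blood mononuclear cells came from 4 C57BL/6 mice, all of them anaesthetized. The paper describes their setup as that of its bulk study of ear skin. The mice of that study were female wild types aged 3.2 ± 0.3 months. Sex and age are not given separately for these 4 mice. In 2 treated mice the ear received an argon plasma jet for 10 min, and 2 untreated mice received anaesthesia alone. The vena cava was bled 120 min after plasma exposure or, in untreated mice, after anaesthesia began. Cells were read by droplet-based 3′ sequencing, in which each molecule carries a unique molecular identifier (UMI) and is counted once whatever its length. The table held 5794 cells, and 4 barcodes were shared between libraries. Cell types and 12 clusters were those of the authors, who derived them from the same counts. The paper names no step that left out the ribosomal protein genes. A difference between types or clusters therefore cannot be taken as independent of how the cells were sorted into them.

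The annotation was compared with defining markers. The CD4+ and CD8+ T cells carried their markers and nearly none of the B cell markers, but the CD4+ T cells also held 289 UMIs of CD8 markers beside 977 of Cd4, from 0.136 to 0.631 per 10000 across mice. The cells annotated as plasmablasts held 0 UMIs of Jchain and 7 of Sdc1, which define antibody-secreting cells, against 5544 of Cd79a and 2308 of Ms4a1, which mark B cells. The other plasmablast markers were Mzb1 with 313 UMIs, Xbp1 with 42 and Prdm1 with 8, and the list of 5 summed to 1.93 to 2.34 UMIs per 10000, beside 1.76 to 2.28 in B cells. The cells annotated as NK cells held 1 UMI of Ncr1 and 1 of Klrb1c against 214 of Cd3e and 216 of Cd8b1. They also held 291 UMIs of Nkg7 and 148 of Klrd1, which cytotoxic T cells share, and the list of 4 NK cell markers summed to 7.54 to 9.56 UMIs per 10000, above the 4.50 to 5.94 of CD8+ T cells, beside 18.2 to 22.3 for T cell markers. Both names are kept here only as the authors' labels. The untreated mouse 1 had 37.1 UMIs of red blood cell markers per 10000 UMIs in its plasmablasts, against 0.137 to 1.13 in the other three mice.

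Pooled over all cells the members supplied 29.8% of UMIs. Of the 100 genes with the most UMIs, 71 were members, and of the top 200, 79 were. Member levels ranged widely: the median was 34.3 UMIs per 10000, and 73 members lay above 10. Rps29, a zinc-binding protein of the small subunit head, was the highest at 115 UMIs per 10000, followed by Rps27 at 106 and Rps24 at 94.8. Rpl37a, Fau and Rpl39 came next with 69.9, 69.2 and 67.1 UMIs per 10000. Fau encodes a ubiquitin-like protein fused to a small subunit protein. These 6 genes together made up 17.5% of the members' UMIs.

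At the other end stood the paralogues. Rpl3l, a gene of striated muscle, had 2 UMIs in 2 cells, and Rpl39l, known from the male germ line, had 6 UMIs in 4 cells. Neither passed the filter on low counts, which left 81 members in each fit. Rpl7l1 was at 0.520 and Rps27l at 0.743 UMIs per 10000, whereas Rpl36al and Rpl22l1 were at 6.81 and 7.80. All 79 remaining members lay within a 16.9-fold range. Ribosomal protein genes have many processed copies in the genome, and reads shared with a copy cannot be placed with certainty, so a member's absolute level is uncertain. Of such copies the table lists Rps27rt with 8719 UMIs, Rpl9-ps6 with 2162, Rpl10-ps3 with 1079 and Rpl36a-ps1 with 547.

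The start regions of the members were searched for pyrimidine runs. A run found this way need not begin at the start of the messenger, as the TOP motif does. RefSeq promoter windows on GRCm38.p6, the build of the deposited counts, were found by symbol for 64 of the 83 members. An unbroken run of at least 7 letters C or T, searched on the transcribed strand from 20 bases before to 20 bases after the annotated start, occurred in 36 of these 64 (56.3%), in 24.2% of all 27025 promoters and in 23.5% of the 7744 promoters of genes tested in B cells. The ETS-type motif CCGGAAG, searched from 250 bases before to 50 bases after the start on both strands and therefore also as CTTCCGG, whose first letters can overlap a pyrimidine run, occurred in 39.1% of member promoters, 9.12% of all promoters and 21.7% of those of genes tested in B cells. TATAAA, on either strand of the 50 bases before the start, was found in 1 of 64 member promoters (1.56%). It occurred in 3.78% of all promoters and in 1.34% of those of genes tested in B cells, close to the members' value. The 9 windows below are shown because the results turn on these genes: the first 4 are among the members that were most different between T and B cells or went the other way, followed by 2 that differed between libraries or in plasmablasts, and by 3 paralogue genes. Each runs from 20 bases before to 20 bases after the annotated start, and capitals mark runs of at least 7 pyrimidines.
Rplp0: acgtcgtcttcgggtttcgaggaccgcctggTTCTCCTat
Rpl5: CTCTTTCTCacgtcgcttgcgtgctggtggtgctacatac
Rpl12: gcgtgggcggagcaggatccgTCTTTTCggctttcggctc
Fau: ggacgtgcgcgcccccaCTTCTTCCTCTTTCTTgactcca
Rpl35: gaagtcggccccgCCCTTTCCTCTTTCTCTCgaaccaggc
Rps27: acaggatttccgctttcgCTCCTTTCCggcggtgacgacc
Rpl22: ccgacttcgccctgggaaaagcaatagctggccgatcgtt
Rpl22l1: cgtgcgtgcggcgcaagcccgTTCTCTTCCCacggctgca
Rpl7l1: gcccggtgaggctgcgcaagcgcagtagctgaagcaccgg

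On the plus strand these windows lie at chr5:115559447-115559486 (Rplp0), chr5:107900508-107900547 (Rpl5), chr2:32961692-32961731 (Rpl12), chr19:6057927-6057966 (Fau), chr4:152325706-152325745 (Rpl22) and chr3:28805488-28805527 (Rpl22l1). On the minus strand they lie at chr2:39005112-39005151 (Rpl35), chr3:90213629-90213668 (Rps27) and chr17:46782637-46782676 (Rpl7l1). Fau and Rpl35 carried long runs across the start, while Rpl22 and Rpl7l1 carried none in the window. The run did not separate members by behaviour. In CD4+ T cells against B cells, the median log2 fold change was 0.45 for the 35 tested members with a run and 0.46 for the 27 without. In plasmablasts against B cells the medians were -0.47 and -0.48. The members are spread over 20 chromosomes, with 14 of them on chromosome 7.

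The first question was how much of the messenger pool these genes take in each cell type. In B cells the members made up 24.9% and 25.8% of UMIs in the untreated mice and 25.6% and 27.3% in the treated mice. In CD4+ T cells the values were 32.7%, 33.0%, 33.7% and 35.1% in the same order, and in CD8+ T cells 36.5%, 36.5%, 38.5% and 39.9%. Plasmablasts had the lowest share, with 19.6%, 18.5%, 19.3% and 20.5%. The order, upwards from plasmablasts through B cells and CD4+ to CD8+ T cells, was the same in all 4 mice and the ranges of the types did not overlap. The cells annotated as NK cells, 13 to 22 per mouse, reached 38.3% to 42.1%, which overlapped the CD8+ T cells: the difference between them ran from -0.189 to 3.90 percentage points across mice.

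**Figure D1:**
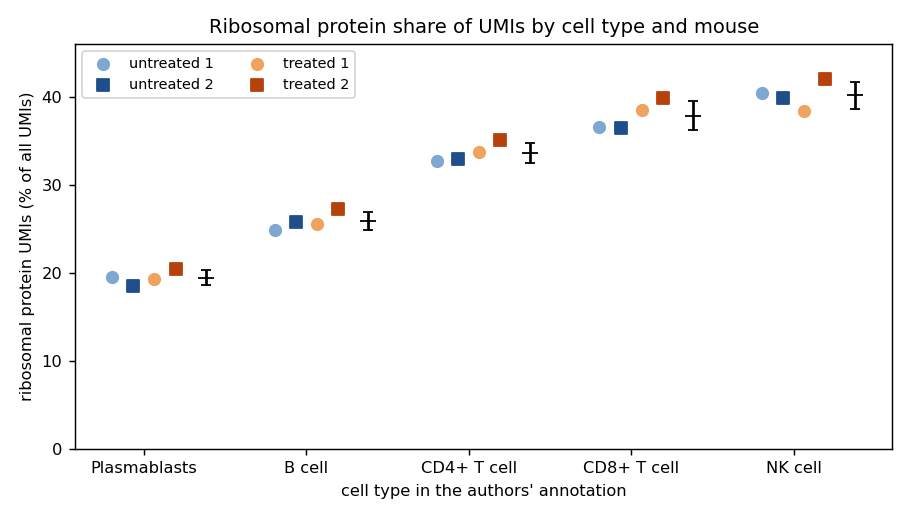
Ribosomal protein UMIs as a percentage of all UMIs (vertical axis) for each annotated cell type, with a point for each mouse and black bars for the mean ± SD of the 4 mice. The types stand apart from 18.5% to 20.5% in plasmablasts to 36.5% to 39.9% in CD8+ T cells.

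Within mice, CD4+ T cells exceeded B cells by 7.73 ± 0.398 percentage points (SD, n = 4), and CD8+ T cells exceeded CD4+ T cells by 4.23 ± 0.648. B cells exceeded plasmablasts by 6.44 ± 0.840. Each of the 6 pairs of types differed in the same direction in 4 of 4 mice (two-sided exact sign-flip permutation test, p = 0.125 and Benjamini-Hochberg adjusted p = 0.125 for each pair, the smallest value that 4 mice allow). Counting error was small beside these differences: the Wilson 95% interval of the B cell share in the untreated mouse 1 was 24.8% to 24.9%. Such intervals cover counting error only.

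Gene by gene, nearly the whole set stood higher in CD4+ T cells than in B cells. In a fit with edgeR's quasi-likelihood test over summed counts, with mouse as a block, 78 of 81 members were higher and 2 were lower at an adjusted p under 0.05, where 25.5% of all 9514 genes tested were higher and 26.4% lower. The median log2 fold change was 0.46 for members and 0.00202 for all genes. The small subunit had 30 of 32 members higher, with a median of 0.51, and the large subunit 48 of 49, with a median of 0.45. The 78 were higher in each of the 4 mice.

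The members did not shift by a common factor. Their log2 fold changes had an SD of 0.25, while the median standard error of a member was 0.0370. The stalk, the flexible arm of the large subunit that recruits elongation factors, held the member with the largest difference. Rplp0, which anchors the stalk, was at 19.0 and 18.2 scaled UMIs per 10000 in B cells of the untreated mice and 19.95 and 21.3 in the treated mice. In CD4+ T cells it was at 44.1, 40.7, 47.1 and 48.1, so that no T cell value came near those of B cells (log2 fold change 1.20, SE 0.0371, edgeR adjusted p = 6.03e-42). The acidic stalk proteins Rplp1 and Rplp2 had 0.97 (SE 0.0353) and 0.65 (SE 0.0365).

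Rpl5 carries a small ribosomal RNA into the large subunit together with Rpl11. It rose from 10.7 to 11.9 scaled UMIs per 10000 in B cells to 21.2 to 23.9 in CD4+ T cells (log2 fold change 0.99, SE 0.0432). Its partner Rpl11 showed a smaller difference of 0.40 (SE 0.0367). Rpl12, at the base of the stalk, and Rpl23a, at the mouth of the exit tunnel, were higher by 0.93 (SE 0.0382) and 0.88 (SE 0.0461). Rps6, the substrate of the S6 kinases, was higher by 0.70 (SE 0.0415), and Rpsa, a small subunit protein related to the laminin receptor, by 0.62 (SE 0.0353).

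Fau and Rpl7l1 went the other way. Fau stood at 68.9, 72.6, 71.0 and 80.98 scaled UMIs per 10000 in B cells of untreated mice 1 and 2 and treated mice 1 and 2, and at 61.6, 62.3, 64.5 and 69.5 in their CD4+ T cells. The values of the types overlap between mice but fall within each mouse (log2 fold change -0.19, SE 0.0330, adjusted p = 1.36e-06). Rpl7l1, a nucleolar relative of Rpl7, was lower in CD4+ T cells by a log2 fold change of -0.63 (SE 0.121, adjusted p = 7.48e-06). Rps27l, a paralogue of Rps27 induced by p53, was not called (log2 fold change -0.14, adjusted p = 0.246).

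**Figure D2:**
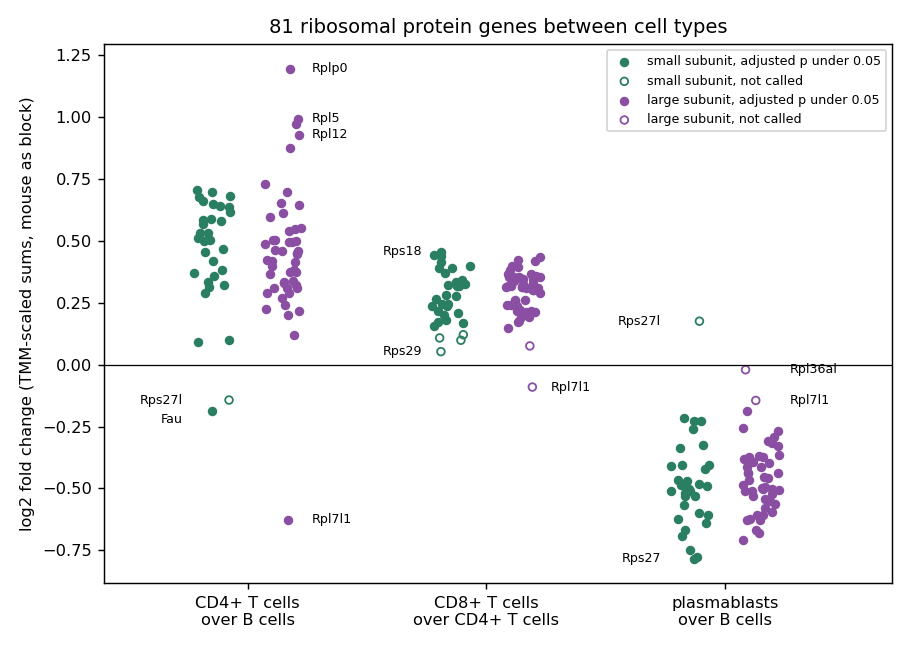
Log2 fold change (vertical axis) of the 81 tested members in 3 comparisons of cell types, with a point for each gene, small subunit left and large subunit right. Filled points passed an adjusted p of 0.05: 78 higher and 2 lower in CD4+ T cells over B cells, 75 higher in CD8+ over CD4+ T cells, and 78 lower in plasmablasts against B cells.

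Between the T cell types the set moved further in the same direction and more evenly. In CD8+ T cells 75 of 81 members were higher than in CD4+ T cells and 0 were lower, where 6.4% of all genes tested were higher and 5.02% lower. The median was 0.31 and the SD among members 0.10. By subunit, 28 of 32 small and 47 of 49 large subunit members were higher. Among the largest differences were those of Rps18, Rps12, Rpl32 and Rpl13, structural proteins of both subunits. Rps18 was at 47.6, 47.6, 50.04 and 52.6 scaled UMIs per 10000 in CD4+ T cells and at 63.6, 61.2, 72.3 and 75.2 in CD8+ T cells (untreated 1 and 2, treated 1 and 2), with no overlap (log2 fold change 0.46, SE 0.0380, adjusted p = 3.09e-16).

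Rps12 hardly separated CD4+ T cells from B cells (log2 fold change 0.10, SE 0.0373) but was higher in CD8+ than in CD4+ T cells by 0.44 (SE 0.0383). Rps29 was the reverse, with 0.68 (SE 0.0318) in the first comparison and 0.05 (SE 0.0319, adjusted p = 0.360) in the second. Rpl31, Rps15, Rps27l and Rpl7l1 were also not called. This comparison depended most on scaling. With total UMIs alone, without the trimmed mean of M-values (TMM) scaling, the median of all genes moved to -0.12, the median of the members to 0.19, and 64 members were called.

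In plasmablasts the set stood lower than in B cells. Here 78 of 81 members were lower and 0 higher, against 7.98% of all genes lower and 8.56% higher, and the median log2 fold change was -0.48. Rps27, a zinc-finger protein of the small subunit, was at 92.4, 112, 97.7 and 116 scaled UMIs per 10000 in B cells and at 53.4, 64.5, 56.6 and 68.9 in plasmablasts (untreated 1 and 2, treated 1 and 2). All plasmablast values lay under all B cell values (log2 fold change -0.78, SE 0.0339, adjusted p = 2.65e-31). Rps21, Rps24, Rplp2 and Rps29 followed, with -0.78, -0.75, -0.71 and -0.69. The 3 members that were not called were paralogues. Rps27l had a log2 fold change of 0.18 (SE 0.139), Rpl36al of -0.02 (SE 0.0649) and Rpl7l1 of -0.14 (SE 0.161).

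The paralogues therefore took different parts of their pairs in different cells. Rpl22l1 supplied 23.9% ± 0.694 of the UMIs of Rpl22 and Rpl22l1 in B cells and 24.6% ± 2.32 in plasmablasts, against 29.3% ± 0.712 in CD4+ and 30.7% ± 1.499 in CD8+ T cells (SD, n = 4). The B and CD4+ T cell values did not overlap, while the CD4+ and CD8+ values did. Rpl36al supplied 27.4% ± 1.48 of the Rpl36a pair in B cells and 36.2% ± 1.95 in plasmablasts, without overlap. Rpl7l1 gave 3.44% ± 0.245 of its pair in B cells, against 1.70% ± 0.179 in CD4+ and 1.40% ± 0.0969 in CD8+ T cells. Rps27l gave 0.718% ± 0.0274 of its pair in B cells and 0.614% ± 0.0376 in CD4+ T cells.

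The balance of the subunits was compared through the ratio of large to small subunit UMIs. B cells had a ratio of 1.06 ± 0.00782 and plasmablasts of 1.09 ± 0.0134, while the ratio was 1.07 ± 0.00546 in CD4+ and 1.10 ± 0.00798 in CD8+ T cells (SD, n = 4). CD8+ T cells exceeded CD4+ T cells by 0.0335 ± 0.00536 in 4 of 4 mice (exact sign-flip permutation p = 0.125, adjusted over 6 pairs 0.188). Without the 3 members with the most UMIs in each subunit, Rps29, Rps27, Rps24, Rpl37a, Rpl39 and Rpl13, that difference was 0.00551. The difference of plasmablasts from B cells likewise went from 0.0347 to 0.0101, so both rested mainly on these 6 genes.

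Clusters described the share more finely than cell types did. The authors' B cells fell mostly into clusters 0, 1 and 2, whose mean shares over the mice were 26.8%, 32.8% and 20.4%. Cluster 1 was as ribosomal protein rich as the average CD4+ T cell. The mice lay closest together in clusters 1 and 2, at 32.4% to 33.4% and 19.998% to 20.7%, and farthest apart in the NK-annotated cluster 11, at 38.3% to 43.1%. CD4+ T cells split into clusters 3 (36.8% to 38.7% across mice) and 7 (34.6% to 36.6%) and clusters 5 and 8, each with a mean of 28.2%. Nearly all CD8+ T cells formed cluster 4, at 37.8%. Plasmablasts split into cluster 6, at 16.5%, and cluster 9, at 27.9%, so that cluster 9 lay at the level of B cells. The lower level of plasmablasts against B cells thus was found in cluster 6, which held 64.6% to 77.2% of the plasmablasts of each mouse. These are descriptions, since the clusters were made from the same counts.

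**Figure D3:**
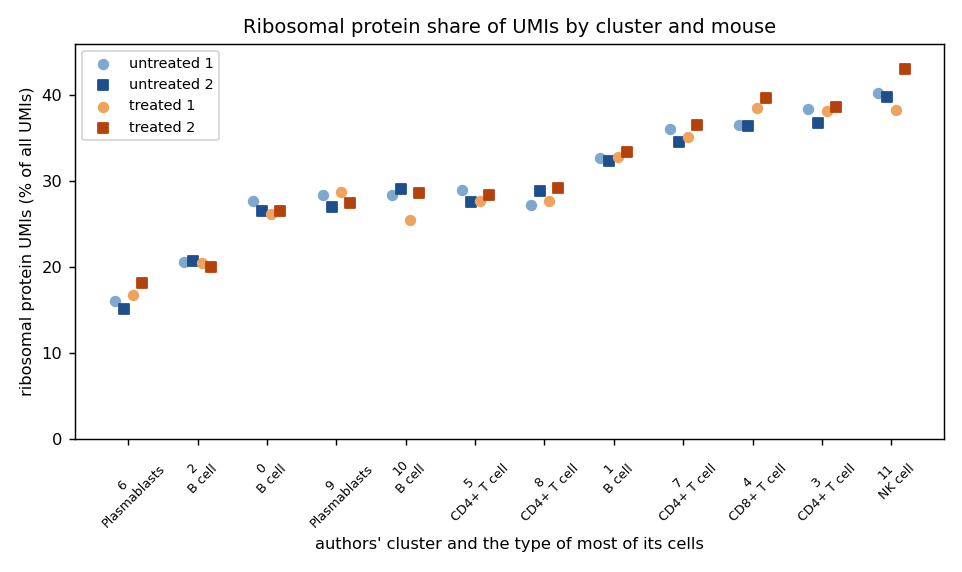
Ribosomal protein UMIs as a percentage of all UMIs (vertical axis) in each of the authors' 12 clusters, ordered by their mean and named with the type of most of their cells, with a point for each mouse. B cell clusters 2 and 1 stand at 20.4% and 32.8%, while CD4+ T cell clusters 5 and 8 lie together at 28.2%.

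Across the 12 clusters the level of a member had a median coefficient of variation of 0.242 over the 79 members above 1 UMI per 10000. Cluster 6 held the lowest level of 69 of them and the NK-annotated cluster 11 the highest level of 55. These levels are unscaled, so the counts largely restate the clusters' mean shares of 16.5% and 40.4%. The same counts over all genes are not given. Rplp0 varied most (coefficient 0.435), from 14.4 UMIs per 10000 in cluster 6 to 53.0 in cluster 11. Rplp1, Rpl12, Rpl5 and Rpsa came next with 0.407, 0.345, 0.337 and 0.329. Cell by cell the share also spread far beyond counting noise. Among B cells of a mouse its SD was 6.42 to 7.11 percentage points, whereas counting alone gives 0.687 to 0.849 for a cell of median depth. In B cells it went along with depth, with Spearman's rho of -0.476 to -0.449 between a cell's share and its UMIs within each mouse, while in CD4+ T cells rho was -0.127 to -0.0250. Clusters 1 and 2 differed in the same way, with median UMIs per cell of 2107 to 3176 and 3344 to 4863. The part of depth in the differences between clusters was not tested.

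The second question was whether the plasma treatment altered these genes. No member passed the adjusted threshold with edgeR's quasi-likelihood test, nor with DESeq2, in any of the 4 cell types. The background was as low, with 0% of genes called in B cells, 0% among CD4+ and 0.0294% among CD8+ T cells, and 0.0186% in plasmablasts. In CD8+ T cells, however, all 81 members had a positive log2 fold change, with a median of 0.20 against 0.00592 for all genes. At an unadjusted p under 0.05, 60 members were higher and 0 lower, where 4.6% of all genes were higher. DESeq2 gave 39 such members, with a median of 0.18 against -0.00866 for all genes. With total UMIs only, edgeR gave 8, with a median of 0.10 against -0.092 for all genes. The share of all genes at this threshold is not given for these settings, so both counts stand without a background.

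Rpl13 of the large subunit was among the members with the smallest p in CD8+ T cells. It was at 80.8 and 83.1 scaled UMIs per 10000 in the untreated mice and 95.2 and 99.1 in the treated mice, without overlap (log2 fold change 0.25, SE 0.0764, edgeR adjusted p = 0.491). Rps18 of the small subunit was at 63.6 and 61.2 against 72.3 and 75.2 (0.25, SE 0.0802, edgeR adjusted p = 0.491). In all, 74 of 81 members had both treated mice above both untreated mice in CD8+ T cells, where 19.5% of all genes did. The members share the same 4 libraries and move together in them, so they do not count as 74 separate results.

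The share of UMIs carried the same pattern in a single value per mouse. In CD8+ T cells it was 39.2% ± 0.933 in treated and 36.5% ± 0.0364 in untreated mice (SD, n = 2), a difference of 2.702 percentage points without overlap. The two-sided exact permutation test gave p = 0.333, the smallest value that 2 against 2 mice allow (adjusted over 5 types 0.833). Of these 600 cells 593 lie in cluster 4, where the difference was 2.62, and 5 cells of treated mouse 2 lie in cluster 11. The 4 NK cell markers summed to 4.50 and 4.93 UMIs per 10000 in the untreated and 5.39 and 5.94 in the treated CD8+ T cells, and the cytotoxic T cell chemokine Ccl5 was called at 1.93 (edgeR adjusted p = 0.000689). Median mitochondrial UMIs were 4.91% and 4.67% in the untreated and 4.97% and 5.12% in the treated mice. Their part in the result was not tested. Median UMIs per CD8+ T cell were 6233 and 4761 in the untreated and 6565 and 5534 in the treated mice and overlapped.

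**Figure D4:**
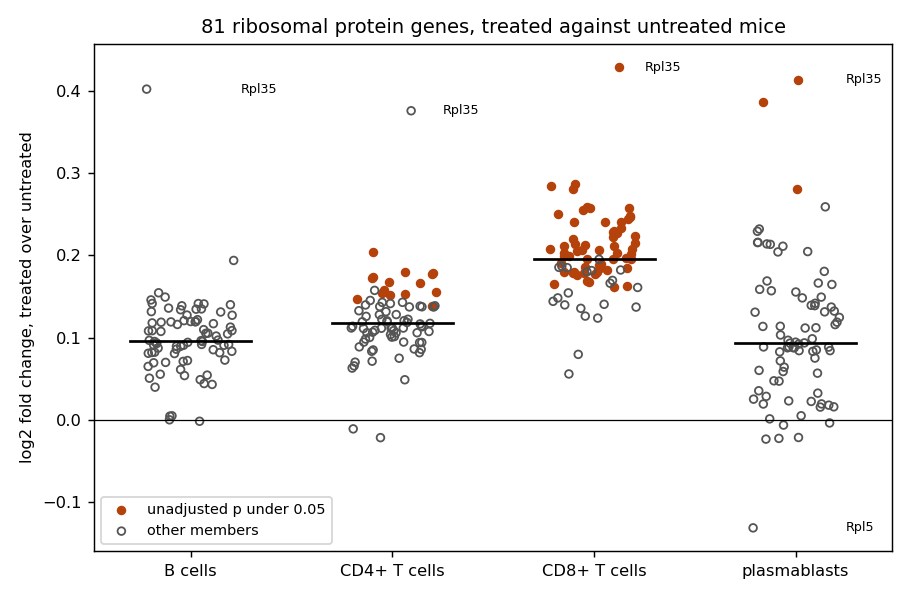
Log2 fold change, treated over untreated (vertical axis), of the 81 tested members in 4 cell types, with a point for each gene and a line at the median. Filled points had an unadjusted p under 0.05 and no point passed the adjusted threshold. The median is highest in CD8+ T cells at 0.20. Rpl35 is the highest member in each type, with Rpl29 close to it in plasmablasts (0.39 against 0.41).

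In CD4+ T cells the share also did not overlap, at 34.4% ± 0.999 in treated and 32.8% ± 0.211 in untreated mice (exact permutation p = 0.333, n = 2). Here 15 members were higher at an unadjusted p under 0.05, where 2.42% of genes were, and 61 members had both treated mice above both untreated, where 17.9% of genes did. Rps3a1, Rpl18 and Rps7 had the smallest p-values, with log2 fold changes of 0.18, 0.18 and 0.17. The make-up of the cells by cluster differed as well. Cluster 3, rich in ribosomal protein UMIs, held 40.2% and 52.0% of the CD4+ T cells of untreated mice and 54.7% and 57.1% of those of treated mice. With equal weight for each cluster the difference fell from 1.61 to 0.371 percentage points. None of clusters 3, 5, 7 and 8 separated the groups, with treated minus untreated values of 0.850, -0.240, 0.981 and -0.108 points. The clusters were made from the same counts, and the part of the make-up in the share difference was not tested. Without treated mouse 2 the difference was 0.903.

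In B cells the difference of 1.10 points overlapped between groups (exact permutation p = 0.667, n = 2), and with equal cluster weights it was -0.223. Without treated mouse 2 the difference was 0.258, without untreated mouse 1 it was 0.654, and without treated mouse 1 it was 1.95. Cluster 2, low in ribosomal protein UMIs, held 47.0% and 30.7% of B cells in untreated mice and 34.2% and 19.5% in treated mice. Within clusters 0, 1 and 2 the treated minus untreated values were -0.783, 0.568 and -0.454 points, each without overlap, so that both treated mice lay below both untreated mice in clusters 0 and 2. At an unadjusted p under 0.05, 0 members were higher, beside 2.45% of genes, and 42 members had both treated mice above both untreated, beside 17.9% of genes. Rps7, Rpl10 and Rplp0 had the smallest p-values, all with an adjusted p of 0.934. Rps15 was the only member with a negative value (log2 fold change -0.00172).

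In plasmablasts 3 members were higher at an unadjusted p under 0.05, Rpl29, Rplp0 and Rpl35, where 3.11% of genes were. In all, 31 members had both treated mice above both untreated, against 19.5% of genes. Rpl29 was at 7.63 and 7.21 scaled UMIs per 10000 in untreated and 9.32 and 10.1 in treated mice (log2 fold change 0.39, SE 0.145, adjusted p = 0.710). The share was 19.9% ± 0.844 against 19.0% ± 0.753 and overlapped (exact permutation p = 0.667, n = 2). The difference of 0.856 points was 0.114 as a mean over cells, 0.26 without treated mouse 2, 0.324 without untreated mouse 2, 1.45 without treated mouse 1 and 1.39 without untreated mouse 1. Within cluster 6, the cluster lowest in ribosomal protein UMIs, the difference was 1.94 points, without overlap. This cluster held 64.8% and 64.6% of plasmablasts in untreated mice and 77.2% and 73.9% in treated mice. Rpl5, Rpl23 and Rpl38 had the negative values with the smallest p, of which Rpl5 had both treated mice below both untreated.

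The treatment effect in CD4+ T cells was set against that in B cells by an interaction term in edgeR. No member passed the adjusted threshold, 0 had an unadjusted p under 0.05, and DESeq2 gave 0 and 0, while 0.0202% of all genes were called. The members' median difference was 0.01 on the log2 scale. The ratio of large to small subunit UMIs differed between treated and untreated mice by -0.00185 to 0.00131 in the 4 tested types, and the groups overlapped in each.

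Rpl35 differed between libraries of the same group, and Rps29 did so to a much smaller extent. Rpl35 (large subunit, next to the exit tunnel, chr2:39001580-39005624 in GENCODE vM21) had the largest positive treatment value in each type, 0.38 to 0.43, yet its groups overlapped. In B cells it was at 11.5 and 21.7 scaled UMIs per 10000 in untreated mice 1 and 2 and at 15.01 and 29.0 in treated mice 1 and 2. In CD8+ T cells the same order held, with 20.6, 34.2, 26.3 and 46.9. Over all cells its highest mouse exceeded its lowest by 2.22-fold, ranked 3 among 1417 genes above 1 UMI per 10000, against a median of 1.08-fold for the members and 1.17-fold for all these genes. The next member was Rpl10 with 1.23-fold. Rps29 had 1.18-fold and ranked 615, near the median of all these genes.

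Rpl35 alone crossed the adjusted threshold when the filter on low counts was dropped, in B cells and both T cell types. It also crossed it when treated mouse 1 or untreated mouse 2 was left out, in B cells, plasmablasts and CD8+ T cells, with log2 fold changes up to 0.92. Without treated mouse 1, Rps29 was called in CD8+ T cells too (log2 fold change 0.30, adjusted p = 0.0183). Rps29 itself was at 79.5 and 97.0 scaled UMIs per 10000 in B cells of untreated mice 1 and 2 and at 89.0 and 105 in treated mice 1 and 2. In each group the second mouse lay above the first, and the groups overlapped in B cells. In CD8+ T cells Rps29 was at 135 and 149.9 in the untreated and 154 and 175 in the treated mice, without overlap.

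**Figure D5:**
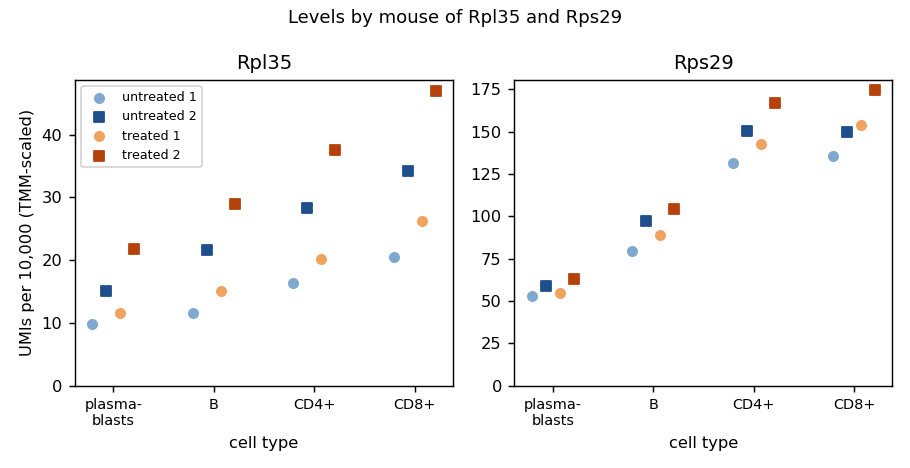
Scaled UMIs per 10000 (vertical axis) of Rpl35 and Rps29 in 4 cell types, with a point for each mouse. Rpl35 keeps the same order of mice in each type, from 11.5 to 29.0 in B cells.

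Other genes of the pathway were taken from lists. Of all genes tested, 25.5% were higher and 26.4% lower in CD4+ T cells against B cells. The shares were 6.4% and 5.02% in CD8+ against CD4+ T cells, and 8.56% and 7.98% in plasmablasts against B cells. Of 28 further TOP messengers tested, such as translation factors, 21 were higher and 3 lower in CD4+ T cells than in B cells (median 0.36). Tpt1 and Eef1b2 led with 0.93 and 0.94, and Eef1a1, the elongation factor that brings in transfer RNA, had 0.76. In CD8+ against CD4+ T cells 15 were higher and 0 lower, among them Rack1, a scaffold on the small subunit (0.37, SE 0.0414). In plasmablasts against B cells 8 were lower and 0 higher, with Tpt1 at -0.55 and Eef1a1 at -0.49. Among 48 ribosome biogenesis factors, 13 were higher and 2 lower in CD4+ T cells, with Wdr12 at 1.39, beside 25.5% and 26.4% of all genes, 0 higher and 2 lower in CD8+ against CD4+ T cells, and 2 higher and 0 lower in plasmablasts, Tcof1 and Ubtf.

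Of 13 snoRNA host genes, which carry small nucleolar RNAs in introns, 7, 5 and 2 were higher in the 3 comparisons. In the same order 1, 0 and 1 were lower. Over all genes tested, 25.5%, 6.4% and 8.56% were higher and 26.4%, 5.02% and 7.98% lower. Gas5, itself a TOP transcript, was higher in CD4+ than B cells by 0.27 and in CD8+ than CD4+ T cells by 0.53. Of 20 regulators of ribosomal protein translation, 4 were higher and 2 lower in CD4+ T cells, beside 25.5% and 26.4% of all genes. The translational repressor Pdcd4 was higher by 0.93, and Eif4ebp1, which restrains cap-dependent translation, was at -1.82 in CD4+ T cells and at 0.87 in plasmablasts, each against B cells. Of 77 mitochondrial ribosomal protein genes tested, which are not members, 25 were higher and 3 lower in CD4+ T cells and 5 higher and 0 lower in plasmablasts, with medians of 0.17 and 0.14, beside 25.5% of all genes higher in the first comparison and 8.56% in the second.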

How the data were processed

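Single-cell RNA libraries of 2 treated and 2 untreated mice were aligned by the authors with Cell Ranger 7.1.0 to mm10 and filtered in Seurat 4.3.0 to 200 to 2500 genes and at most 10% mitochondrial UMIs per cell, after ambient RNA correction with SoupX and doublet removal with DoubletFinder. The deposited table holds raw UMI counts per gene and cell as whole numbers. Whether they include the ambient correction could not be told from the labels or methods. Cell types and clusters are those deposited by the authors. Per-sample columns left unused numbered 0.

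UMIs of each cell type were added up within a mouse (279795 to 3457389 UMIs in the 4 tested types). Sums were fitted with edgeR 4.0.16 (filterByExpr, TMM, quasi-likelihood, Benjamini-Hochberg over all genes, threshold 0.05), with the mouse as a block between types, which is a pairing by animal. DESeq2 1.42.0 was an alternative. Shares were compared by exact permutation over mice (scipy 1.17.1). Levels are UMIs per 10000, scaled by TMM where called scaled. The fits were tested on simulated data. No source says that the libraries of a group were prepared separately beyond coming from separate mice.

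The members and lists were chosen with earlier results of these data known. Genes were named by rule: the 6 highest and 6 lowest members, up to 5 per direction in each comparison of types that passed the threshold in the same direction in 4 mice, the 3 smallest p-values per direction for treatment, paralogue pairs, stalk proteins, Rpl5, Rpl11, Rps6, Rpsa, Fau and Rack1, the 5 most variable between clusters, and the 3 smallest p-values of each list. Rps29 and Rpl35 in the paragraph on libraries, and the windows shown, were chosen after their values were seen. Alternatives were other scalings, no filter on low counts, equal cells per mouse, other denominators, equal cluster weights, no block and leaving out each mouse. Results on some genes are not reported here.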

Additional observations from a re-analysis of the deposited data

Results flagged for a closer look

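Rpl5 had both treated mice above both untreated mice in B cells, CD4+ T cells and CD8+ T cells and both below in plasmablasts. Its treated minus untreated log2 values were 0.11, 0.11, 0.14 and -0.13. Set against plasmablasts, the difference was 0.24 for B cells, 0.24 for CD4+ T cells and 0.27 for CD8+ T cells. This difference was not tested, and no single value passed the adjusted threshold (adjusted p = 0.896 in plasmablasts, edgeR). Groups of 2 mice allowed no search for single outlying samples.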

How the results depend on the processing

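The direction of the share differences and the counts of members called between types held under other scalings, DESeq2, equal cells per mouse, no filter on low counts and leaving out each mouse, apart from the values given here. Leaving out a mouse, the treated minus untreated share ranged from 0.258 to 1.95 points in B cells, from 0.26 to 1.45 in plasmablasts, from 0.903 to 2.32 in CD4+ and from 2.04 to 3.36 in CD8+ T cells. For CD4+ T cells against B cells, the share difference was 7.18 percentage points as a mean over cells and 8.19 with mitochondrial genes, Malat1 and Gm42418 left out of the total. With equal weight for each cluster the treated minus untreated share was -0.223 in B cells and 0.371 in CD4+ T cells. Without the 3 most abundant members of each subunit, the ratio of large to small subunit UMIs differed by 0.00551 between CD8+ and CD4+ T cells and by 0.0101 between plasmablasts and B cells. Without the mouse as a block, which pairs cell types by animal, 74 members were called higher and 2 lower in CD4+ T cells against B cells, 57 higher in CD8+ against CD4+ T cells and 72 lower in plasmablasts, and 0 in the interaction.

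For treatment, no filter on low counts gave 1 member called higher in each of B cells, CD4+ and CD8+ T cells, and leaving out a mouse gave 0 to 1 in B cells, 0 to 1 in plasmablasts and 0 to 2 among CD8+ T cells. Where a group is left with 1 mouse, that mouse is assumed to vary like the others. At an unadjusted p under 0.05 the count of 15 in CD4+ T cells became 42 without the filter and 1 with total UMIs only. The median of all genes was 0.026 and -0.043 in these settings, and that of the members 0.12 and 0.066. The share of all genes at this threshold is not given for them, so the counts are not read as results about the members. The causes were not tested.

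Of 818 values of named genes, 780 kept direction and call, 18 lost the call, 2 gained it and 18 changed sign. In plasmablasts under treatment, Rpl23 was at 0.011 without the filter, 0.012 with equal cells and -0.0856 to 0.056 without a mouse. Rpl38 was at 0.012, 0.033 and -0.0728 to 0.046, and Rpl35 at -0.12 to 0.82 without a mouse. Under treatment in B cells, Rps15 was at 0.0073 without the filter, 0.011 with equal cells and -0.033 to 0.026 without a mouse. In CD4+ T cells Rpl7l1 ranged from -0.13 to 0.092 and Rps27l from -0.17 to 0.15 without a mouse. With total UMIs only, Rpl36al was at 0.086 in plasmablasts against B cells and Rps27l at -0.020 in CD8+ against CD4+ T cells, where Rpl7l1 ranged from -0.13 to 0.000847 without a mouse. With 2 mice per group, depth is not what limits the treatment tests to p = 0.333 in a permutation.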

Other observations

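Some cells held few ribosomal protein UMIs. In 36 of 5794 cells (0.621%) the share was under 5%, a threshold chosen after the values were seen. Of these cells the B cell annotation held 2 and 6 in the untreated and 10 and 5 in the treated mice. The plasmablast annotation held 4 in untreated mouse 2 and 2 in each treated mouse, and T cell annotations held the rest. The 36 cells had a median of 2104 UMIs against 3845 in the other cells and 1155 genes against 1500. Malat1, a nuclear RNA, was at 463 UMIs per 10000 in them and 265 in the others, and the B cell transcription factor genes Ebf1 and Bach2 were at 72.2 against 18.8 and 48.9 against 12.4. Their median mitochondrial share was 7.60% against 5.41%, and Gm42418, a transcript that overlaps ribosomal RNA sequence, was lower at 92.1 against 170 UMIs per 10000. Ribosomal protein UMIs made up 1.34% of the total in these cells and 29.9% in the others, which include more T cells. The part of this total, and of the mix of cell types, in the gene differences was not tested.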
